A study of Artemia parthenogenetic lineage with 6 samples.

Results

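Receptor transcripts of 4 kinds were followed in brine shrimp cysts (Artemia parthenogenetica) as these left diapause: an adhesion receptor, a Frizzled receptor, a RYamide receptor and an opsin. Their gene models are evm.TU.ctg485.29 (adhesion GPCR E5), evm.TU.ctg321.8 (Frizzled-10), evm.TU.ctg441.12 (RYamide receptor) and evm.TU.ctg179.30 (opsin family). The models were taken by identifier, 4 of 16591 in the deposited table. Their names are those of the genome annotation of Artemia franciscana, as used in the study. The ArR_5h group (n = 3 libraries) was collected 5 h after embryonic diapause termination (EDT), from dried cysts soaked in cold artificial seawater and then kept at 28 °C in 30‰ seawater under constant light. The ArD_0h group (n = 3 libraries) was collected at the diapause stage, and its label gives no treatment. The labels call both groups wild type, and the study describes biological replicates, all drawn from a single batch of Ebinur Lake cysts. A shared protocol in the labels names rehydration for both stages, so whether the ArD_0h cysts were soaked is not clear from the labels. Per the study's methods, diapause was broken by drying and refrigeration. Time after EDT therefore cannot be told apart from drying, refrigeration, soaking, warming and light.

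G-protein-coupled receptors (GPCRs) are membrane proteins that bind a signal outside the cell and switch on G proteins inside it. Adhesion GPCRs carry long outer domains that hold on to neighbouring cells or matrix. Frizzled proteins receive secreted Wnt ligands, which guide cell fate and polarity in animal embryos. RYamides are arthropod neuropeptides whose receptor is known from Drosophila melanogaster, and opsins are the protein part of the pigments that absorb light. The study picked all 4 models as GPCR candidates by an annotation term for GPCR activity, among genes that changed in RNA and in chromatin accessibility. It then kept all 4 as GPCRs by the predicted structure of their proteins. The adhesion and Frizzled models were chosen as up-regulated in the first minutes after EDT. In the later hours the RYamide receptor was chosen as down-regulated and the opsin as up-regulated. That choice used these ArR_5h and ArD_0h libraries beside an intermediate time point not analysed here, so the directions given below are not independent of it.

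Total counts were 9992823 to 12283327 reads in the ArR_5h libraries and 10135128 to 13505892 in the ArD_0h libraries. Reads were found for 14844 models, and 11959 had enough reads to be tested, among them 4 of the 4 receptors. Levels within a gene are CPM, read counts divided by a library size that TMM factors adjust. A floor of 3 reads per library lay at 0.227 to 0.2996 CPM. Each receptor had at least 67 reads in every library, far above this floor. Levels of different genes were compared as FPKM, which divides by gene length. The lengths behind the FPKM values were 2208 bases for the adhesion model, 1818 for Frizzled-10, 1404 for the RYamide receptor and 1953 for the opsin. The groups lay apart on the first principal component, and ArR_5h replicates 2 and 3 lay at opposite ends of the next one. Since the cysts were sequenced whole, fewer cells of a type and less RNA per cell cannot be told apart, and all levels are relative to the RNA of the library. Nothing states that the replicates were separate cultures, so p-values measure the spread between these libraries only.

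The adhesion GPCR E5 transcript rose after diapause, and it was the only one of the 4 that was up-regulated. It stood at 79.7, 75.9 and 66.7 CPM in ArR_5h replicates 1, 2 and 3, against 20.3, 18.4 and 18.8 CPM in those of ArD_0h. The lowest ArR_5h library thus lay far above the highest ArD_0h library. The means were 74.1 ± 6.71 CPM in ArR_5h and 19.2 ± 1.03 CPM in ArD_0h (SD, n = 3 each). This gave a log2 fold change of 1.95 ± 0.10 (SE), with a 95% confidence interval of 1.72 to 2.18, a 3.86-fold increase (edgeR, adjusted p = 5.48e-07). Up- and down-regulated models are those with an adjusted p within 0.05 whose log2 fold change was also above 1 or below −1. Among all tested models 14.3% were up-regulated and 10.7% down-regulated, while 344 models rose more than this receptor. It was up-regulated in each of 17 alternative settings, with log2 fold changes of 1.85 to 2.02. These include glmTreat, which asks that the change exceed the fold limit beyond its error (adjusted p = 3.16e-05) and which called 6.99% of the tested models up-regulated. Beside the receptor terms, the study's annotation gives this model terms for alpha-L-arabinofuranosidase, an enzyme that acts on carbohydrates, and for scavenger receptor activity.

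The opsin-family transcript was also higher at 5 h, but its change was on the edge of the fold limit. Its libraries held 15.55, 15.71 and 14.0 CPM in ArR_5h replicates 1, 2 and 3, and 6.34, 7.79 and 9.14 CPM in those of ArD_0h. The groups did not overlap, and the ArD_0h libraries differed more among themselves than the ArR_5h libraries did. The means were 15.1 ± 0.933 CPM in ArR_5h and 7.75 ± 1.40 CPM in ArD_0h (SD, n = 3 each), 1.93-fold higher. The log2 fold change of 0.95 ± 0.16 (SE) passed the adjusted p but not the fold limit, with a 95% confidence interval of 0.59 to 1.32 (edgeR, adjusted p = 0.000610). The opsin was called up-regulated without ArD_0h replicate 3, with 1.09, or without ArR_5h replicate 3, with 1.001 on the log2 scale. In the ArD_0h libraries the opsin had the smallest counts of the 4 receptors, 67, 78 and 121 reads. In the ArR_5h libraries the RYamide receptor had the smallest, 138, 110 and 142 reads. Opsins are best known from eyes, and which cells of the cyst held this RNA was not measured.

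The RYamide receptor transcript was the one that was lower at 5 h. It stood at 11.9, 10.5 and 12.1 CPM in ArR_5h replicates 1, 2 and 3, against 19.4, 19.8 and 17.8 CPM in those of ArD_0h. Each ArR_5h library lay below each ArD_0h library. The means were 11.5 ± 0.905 CPM in ArR_5h and 19.0 ± 1.04 CPM in ArD_0h (SD, n = 3 each), 1.65-fold lower. The log2 fold change was −0.72 ± 0.13 (SE), with a 95% confidence interval of −1.01 to −0.43 (edgeR, adjusted p = 0.000822). It was not called down-regulated under any of the 17 alternatives, which gave −0.77 to −0.64, and its adjusted p was within the limit in the 16 that do not test against the fold limit.

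No change between ArD_0h and ArR_5h was found in the Frizzled-10 transcript. The study reports it as up-regulated in the first minutes after EDT, a time point not analysed here. It held 16.2, 15.7 and 12.9 CPM in ArR_5h replicates 1, 2 and 3, against 16.7, 16.1 and 15.8 CPM in those of ArD_0h. The ranges overlapped, and ArR_5h replicate 3 was the one low library. The means were 14.9 ± 1.76 CPM in ArR_5h and 16.2 ± 0.493 CPM in ArD_0h (SD, n = 3 each). The log2 fold change was −0.12 ± 0.14 (SE; edgeR, adjusted p = 0.468). Its 95% confidence interval of −0.42 to 0.18, or 0.748-fold to 1.13-fold, leaves room for a small change either way and not for one of the size of the adhesion receptor. Without ArR_5h replicate 3 it was −0.02.

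**Figure D1:**
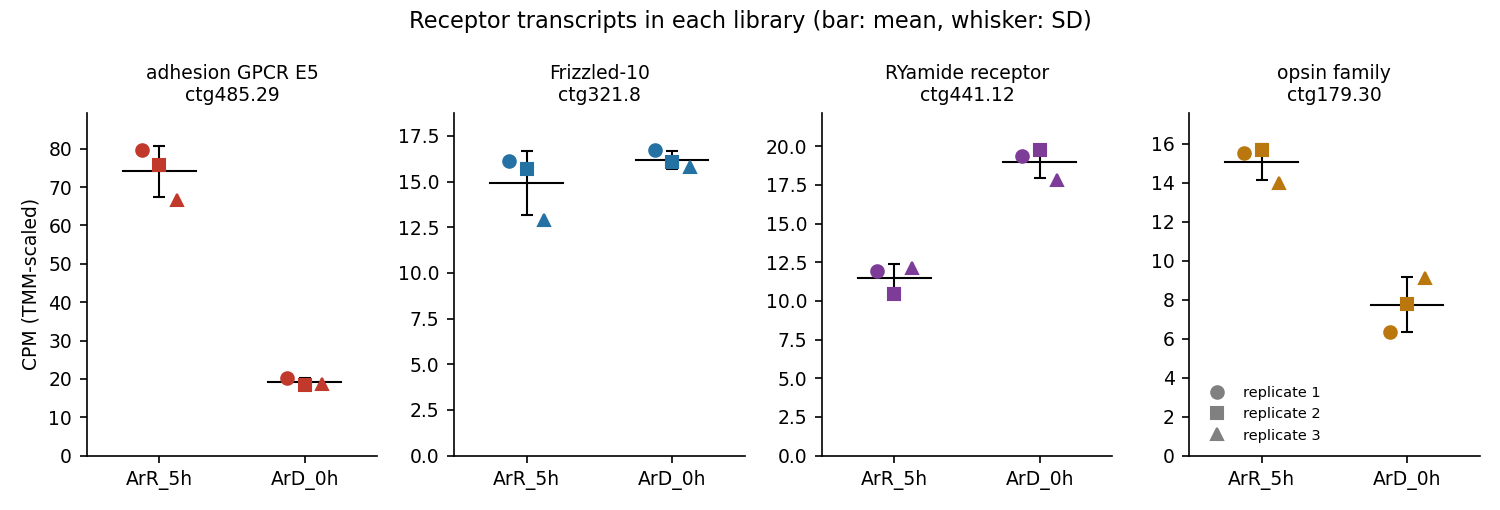
TMM-scaled CPM of the 4 receptor models in each ArR_5h and ArD_0h library, with one panel per model and its own vertical axis from 0. Symbols mark the replicate number, bars the mean and whiskers the SD (n = 3). The adhesion model stands at 66.7 to 79.7 CPM in ArR_5h and 18.4 to 20.3 CPM in ArD_0h, and only the Frizzled-10 panel has overlapping groups.

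Read together, 2 of the 4 receptors were higher and 1 was lower at the adjusted p limit alone, which 31.0% of all tested models passed as higher and 29.5% as lower. Libraries that did not overlap were seen in 3 of the 4 receptors and in 66.9% of the tested models. A change in RNA level of some size was therefore common in this comparison, and the receptors as a group did not stand out by how many of them changed. They differed in where their change lay among all models. The opsin was exceeded by 1842 of 11959 models, whereas 17.8% of the models had a lower log2 fold change than the RYamide receptor and 44.3% a lower one than Frizzled-10.

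**Figure D2:**
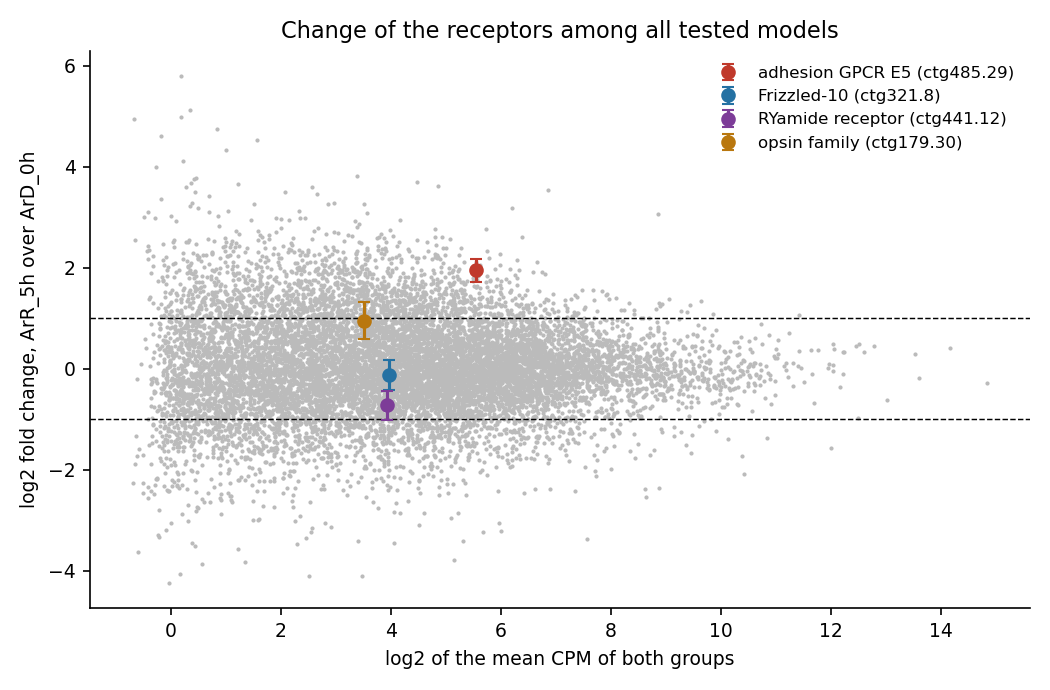
Log2 fold change (ArR_5h over ArD_0h) against the log2 of the mean CPM of both groups for the 11959 tested models (grey points), with the 4 receptors in colour. Whiskers are 95% confidence intervals and dashed lines the limits of 1 and −1. The adhesion model lies at 1.95, the opsin at 0.95 just under the limit, Frizzled-10 at −0.12 and the RYamide receptor at −0.72.

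Levels per length put the receptors in a different order at the 2 stages. At 5 h the adhesion receptor came first with 33.4 ± 2.81 FPKM, while Frizzled-10 had 8.16 ± 0.905 FPKM, the RYamide receptor 8.16 ± 0.705 FPKM and the opsin 7.68 ± 0.412 FPKM (SD, n = 3). The adhesion level was 4.10-fold that of Frizzled-10 in ArR_5h, and the last 3 receptors overlapped in their libraries. At 0 h the RYamide receptor came first with 13.3 ± 0.764 FPKM. Frizzled-10 with 8.74 ± 0.288 FPKM and the adhesion receptor with 8.52 ± 0.470 FPKM overlapped, and the opsin was last with 3.89 ± 0.692 FPKM (SD, n = 3). The adhesion receptor thus moved past the RYamide receptor, and the opsin drew level with Frizzled-10. Of the summed FPKM of the 4 receptors, the adhesion receptor made up 58.1% ± 1.10 in ArR_5h and 24.7% ± 1.18 in ArD_0h (SD, n = 3 each). The share of the RYamide receptor was 14.3% ± 1.81 in ArR_5h and 38.5% ± 1.66 in ArD_0h. The sum itself was 57.4 ± 3.86 FPKM in ArR_5h and 34.4 ± 0.572 FPKM in ArD_0h. The 4 lengths all divide by 3, as those of 55.6% of the 11640 evm models with reads do. Models that include stretches outside the coding part count more reads and more length, and this difference between genes was not corrected.

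All 4 transcripts were of moderate abundance, except that the adhesion receptor passed the upper quartile of mean FPKM in ArR_5h. The median over models with reads was 6.96 FPKM in ArR_5h and 6.30 FPKM in ArD_0h, and the upper quartile was 28.7 FPKM in ArR_5h and 27.0 FPKM in ArD_0h. The adhesion receptor ranked 3345 of 14844 models by mean FPKM in ArR_5h and 6622 in ArD_0h. Its percentile, the share of models with a lower FPKM in the same library, was 77.5 ± 1.15 in ArR_5h and 55.4 ± 0.897 in ArD_0h (SD, n = 3 each). The opsin had a percentile of 51.8 ± 0.527 in ArR_5h and 41.7 ± 3.36 in ArD_0h. Its side of the middle at 5 h turned with the models ranked, since its percentile was 43.97 among evm models and 40.2 among tested models. The RYamide receptor was at 52.8 ± 2.74 in ArR_5h and 63.2 ± 0.968 in ArD_0h. For Frizzled-10 the percentile was 52.9 ± 1.21 in ArR_5h and 55.8 ± 0.490 in ArD_0h, with no overlap between libraries in this measure although its CPM values overlapped. Like the opsin, Frizzled-10 and the RYamide receptor lay below the middle at 5 h when only evm models (45.1 and 45.04) or only tested models (41.5 for both) were ranked. In ArD_0h the places also depended on the models ranked. Among tested models only, the adhesion receptor was at 44.6 and Frizzled-10 at 45.2, both below the middle. The opsin was at 28.0 and the RYamide receptor at 54.3 in that ranking.

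**Figure D3:**
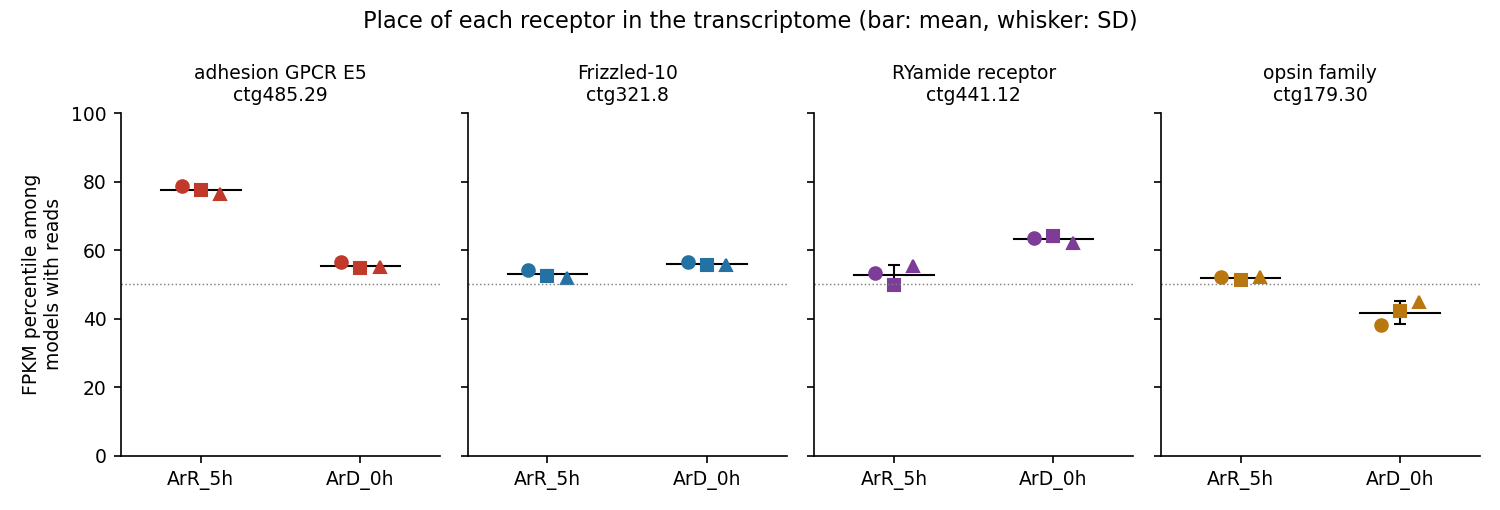
FPKM percentile (share of the 14844 models with reads that have a lower FPKM in the same library) of each receptor in the ArR_5h and ArD_0h libraries. Symbols mark the replicate number, bars the mean, whiskers the SD (n = 3), and the dotted line the middle of the transcriptome. The adhesion model is at 76.3 to 78.6 in ArR_5h and 54.7 to 56.4 in ArD_0h, and the opsin is above the line in ArR_5h alone, which does not hold when only evm or only tested models are ranked.

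The ratio of 2 receptors within a library needs no scaling factor, so the changes of the receptor types were compared in this way. All 6 pairs were tested, and in each pair the ArR_5h and ArD_0h ratios did not overlap. The 6 ratios are built from 4 models and so are not independent of each other. How often ratios of other models lie apart was not measured, while 66.9% of single tested models had libraries that did not overlap. The two-sided exact permutation test gave p = 0.1 for every pair, also after adjustment over the 6 pairs, which is the smallest that 3 against 3 libraries can give, so no pair could pass 0.05. The ratio of adhesion receptor to Frizzled-10 reads had log2 values of 2.27 to 2.37 in ArR_5h and 0.19 to 0.28 in ArD_0h. This is a change of 2.07 ± 0.04 (SE), or 4.21-fold, and the steadiest of the 6. The adhesion receptor gained most on the RYamide receptor, with a change of 2.67 ± 0.13 in the log2 ratio, or 6.37-fold. Between the 2 receptors that were higher at 5 h, the adhesion receptor gained 0.97 ± 0.19 on the opsin. The opsin in turn gained on the others, with a change of −1.10 ± 0.19 in the ratio of Frizzled-10 to opsin and of −1.70 ± 0.22 in that of RYamide receptor to opsin. At 5 h, Frizzled-10 and opsin reads were nearly equal in number, with log2 ratios of −0.12 to 0.06, against 0.79 to 1.40 in ArD_0h. The smallest change was that of Frizzled-10 to RYamide receptor, 0.60 ± 0.15.

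**Figure D4:**
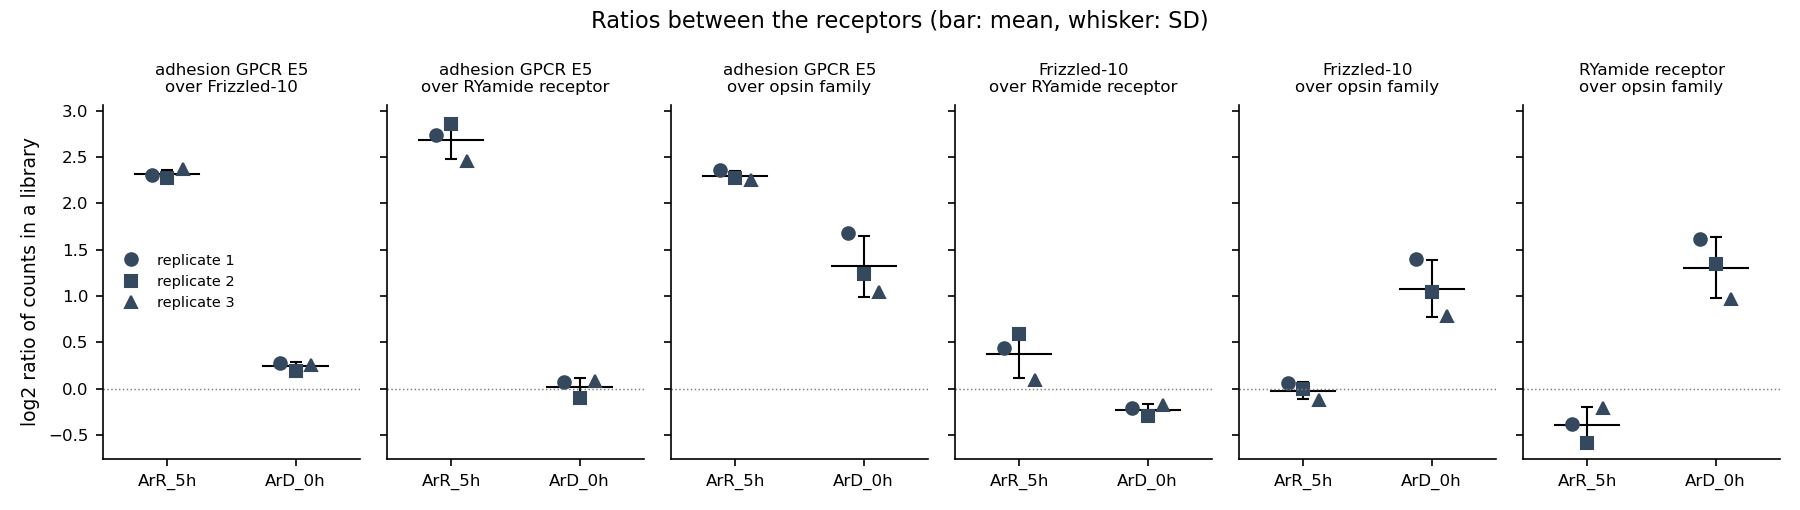
Log2 ratio of the read counts of 2 receptor models within each library, for the 6 pairs, in ArR_5h and ArD_0h. Symbols mark the replicate number, bars the mean and whiskers the SD (n = 3). In each panel the groups lie apart, and the widest gap is that of adhesion receptor over RYamide receptor, 2.46 to 2.86 in ArR_5h and −0.11 to 0.08 in ArD_0h.

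The spread between replicates was set beside the error that counting alone gives. The coefficient of variation of the CPM was 7.87% in ArR_5h and 5.46% in ArD_0h for the RYamide receptor, where counting alone gives 8.77% in ArR_5h and 6.85% in ArD_0h. The adhesion receptor varied by 9.06% in ArR_5h, where counting gives 3.46%, and by 5.38% in ArD_0h, where it gives 6.80%. For the opsin the larger spread was at 0 h, 6.18% in ArR_5h and 18.04% in ArD_0h, where counting gives 7.68% in ArR_5h and 10.6% in ArD_0h. Frizzled-10 varied by 11.8% in ArR_5h and 3.05% in ArD_0h, where counting gives 7.72% in ArR_5h and 7.41% in ArD_0h. The reads carried no molecular identifiers, so copies of one molecule can be counted more than once. Counting error is a lower limit of the true spread, but an SD from 3 libraries is imprecise and can fall below it, as several values here do. In the adhesion, Frizzled-10 and opsin models the lowest ArR_5h level was that of replicate 3, whereas the RYamide receptor was highest there.

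The models next to each receptor on its contig were examined as context. Identifiers carry a contig and a running number, and positions on the genome were not used here, so reads shared by overlapping models could not be checked. The contig of the adhesion receptor lists 22 other models, of which 19 were tested. Of these 3 were up-regulated and 1 was down-regulated, shares not far from the 14.3% and 10.7% of all tested models. Its direct neighbours were not called. The log2 fold change was 0.29 ± 0.11 for evm.TU.ctg485.28 (edgeR, adjusted p = 0.0430) and 0.25 ± 0.18 for evm.TU.ctg485.30 (edgeR, adjusted p = 0.239). Slightly further on, evm.TU.ctg485.32 rose to 17.7 ± 2.69 CPM in ArR_5h, against 6.11 ± 0.619 CPM in ArD_0h (SD, n = 3 each; log2 fold change 1.54 ± 0.17, edgeR, adjusted p = 2.89e-05). On the other side, the abundant evm.TU.ctg485.27 differed by −0.14 ± 0.07 (edgeR, adjusted p = 0.0831). The weak evm.TU.ctg485.26 fell by 1.34 ± 0.42 on the log2 scale (edgeR, adjusted p = 0.0179), at 0.659 CPM in ArR_5h and 1.68 CPM in ArD_0h. The increase of the adhesion receptor was the largest among the tested models of its contig.

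The other contigs list fewer models close to the receptors. On the contig of the opsin, with 19 other models and 18 tested, 4 were down-regulated and none was up-regulated, beside 10.7% and 14.3% of all tested models, and no listed model lies within 3 numbers of the opsin. The RYamide receptor has 11 other models on its contig, of which 10 were tested and none was called. Its neighbour evm.TU.ctg441.11 did not pass the test, at 0.17 ± 0.09 (edgeR, adjusted p = 0.146). At the adjusted p alone evm.TU.ctg441.10 was higher, with 0.23 ± 0.08 (edgeR, adjusted p = 0.0299), and evm.TU.ctg441.9 was lower, with −0.85 ± 0.29 (edgeR, adjusted p = 0.0259) at a low level of 1.47 CPM in ArR_5h and 2.65 CPM in ArD_0h. The study's annotation places evm.TU.ctg441.10 in DNA replication. Frizzled-10 has 3 other models on its contig and 2 were tested. The one close by, evm.TU.ctg321.6, had −0.15 ± 0.12 (edgeR, adjusted p = 0.271) and like Frizzled-10 overlapped between the groups. The other, evm.TU.ctg321.14, fell by 1.62 ± 0.40 on the log2 scale (edgeR, adjusted p = 0.00502) at a level near the floor, 0.468 CPM in ArR_5h and 1.47 CPM in ArD_0h.

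**Figure D5:**
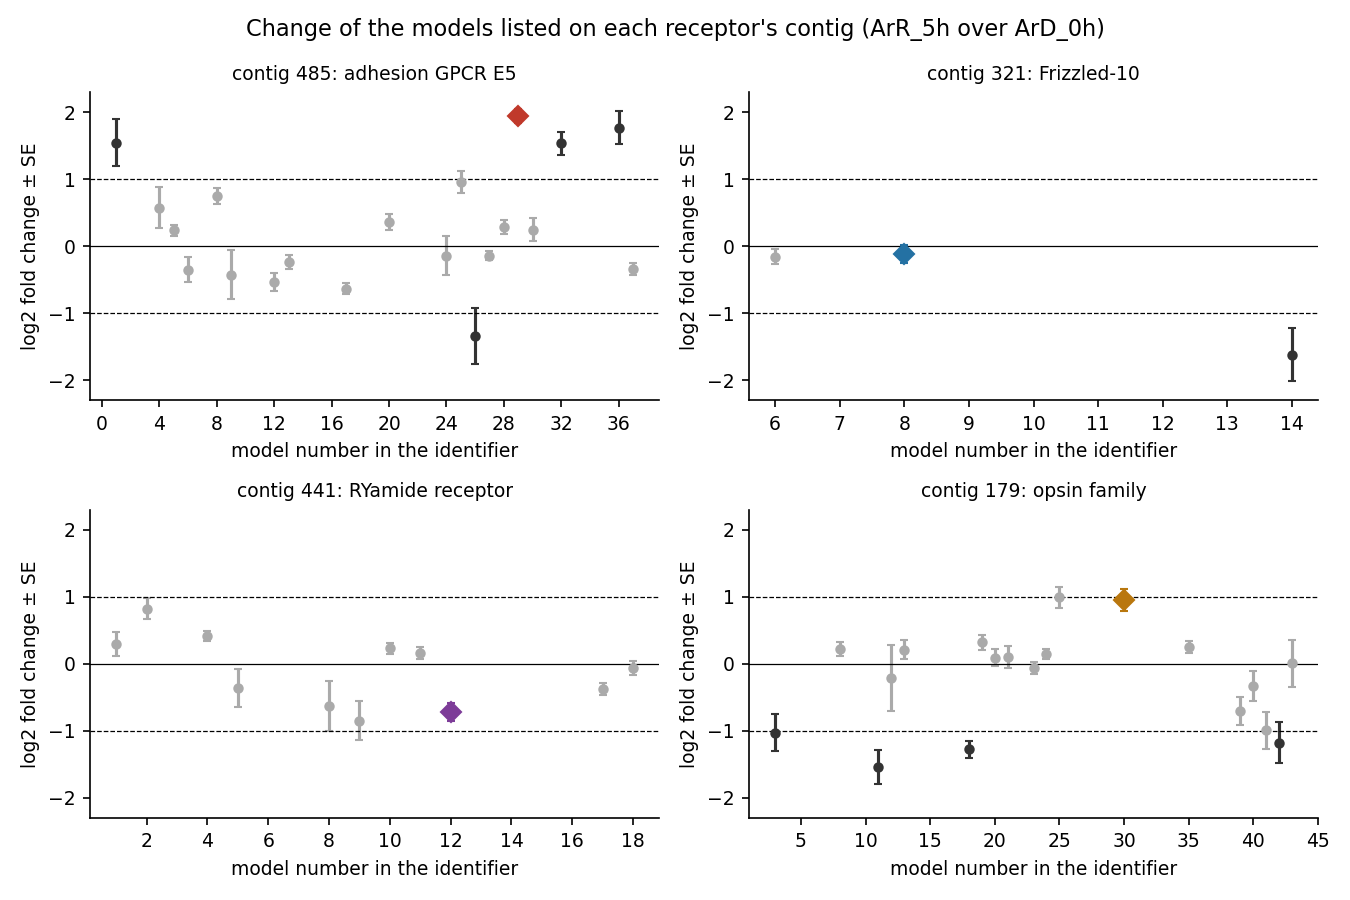
Log2 fold change (ArR_5h over ArD_0h, whiskers are SE) of the tested models on the contig of each receptor, against the running number in the identifier. Diamonds are the receptors, dark points other called models, pale points models not called, and dashed lines the limits of 1 and −1. The adhesion receptor is the highest point in its panel, and the tested points nearest to the opsin lie 5 numbers from it on either side.

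The 4 receptors were also set beside the rest of the pathway as the study lists it. Of its 11 other GPCR candidates, 9 could be tested, of which 1 was up-regulated and 3 were down-regulated, beside 14.3% and 10.7% of all tested models. By structure prediction the study kept only evm.TU.ctg71.25 of these other candidates as a GPCR, and so none of those called here. The counts and median below are thus of annotated candidates, most of them without that structure. Among the 9, adjusted p was within the limit for 2 higher and 6 lower models, beside 31.0% and 29.5% of all tested models. Their median log2 fold change was −0.84, against −0.01 over all tested models. The study picked these candidates among genes that changed in comparisons with the same libraries, so neither the counts nor the median are independent of that choice. The down-regulated evm.TU.ctg179.3, on the contig of the opsin but 27 numbers away, had −1.03 ± 0.28 and was not called without ArD_0h replicate 3 (−0.90) or without ArR_5h replicate 1 (−0.79). Its call was also lost with limma on log2(FPKM + 1), at −0.63, and on log2(FPKM + 0.1), at −0.98. The down-regulated evm.TU.ctg195.9 was not called with limma on log2(FPKM + 1), at −0.99. In turn evm.TU.ctg1716.2 became a down-regulated model when ArD_0h replicate 2 (−1.15) or ArR_5h replicate 2 (−1.04) was left out. With glmTreat, 1 of these 4 calls was made, that of evm.TU.ctg25.48. By FPKM among all 15 candidates, the adhesion receptor was in place 3 in ArR_5h and place 9 in ArD_0h, and the RYamide receptor in place 9 in ArR_5h and place 4 in ArD_0h. The models above the adhesion receptor in ArR_5h, evm.TU.ctg115.32 and evm.TU.ctg25.48, were not kept by structure in the study. Frizzled-10 kept place 8 at both stages, and the opsin was in place 10 in ArR_5h and 12 in ArD_0h.

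Parts of the pathway behind the receptors were taken from the study's annotation of genes that changed in the first minutes, of which only a part was at hand. Of 4 other models with the term for GPCR signalling, 2 were up-regulated and none was down-regulated, beside 14.3% and 10.7% of all tested models. The study chose these genes partly on the ArD_0h libraries, so neither the counts nor the directions are independent of its selection. The models evm.TU.ctg824.6 and evm.TU.ctg744.27 are annotated with GTPase activity and binding to the beta and gamma subunits of G proteins, as alpha subunits have. Neither passed the test in the main fit, and the libraries of both overlapped. The first had a value of 0.19 ± 0.22 on the log2 scale (edgeR, adjusted p = 0.462), the second 0.45 ± 0.19 (edgeR, adjusted p = 0.0586). Without ArR_5h replicate 3 both passed the adjusted p limit, at 0.44 (edgeR, adjusted p = 0.00662) and 0.62 (edgeR, adjusted p = 0.000794). Without ArR_5h replicate 1 they were 0.06 and 0.26. The second also passed narrowly with no filter (edgeR, adjusted p = 0.0493) and with limma on log2(FPKM + 1) (adjusted p = 0.0497). The model evm.TU.ctg637.4, annotated with diacylglycerol kinase activity beside RNA polymerase terms, rose to 17.1 ± 1.03 CPM in ArR_5h, against 6.61 ± 1.64 CPM in ArD_0h (SD, n = 3 each), 2.59-fold (edgeR, adjusted p = 0.000112). The model evm.TU.ctg227.8, which also carries RNA polymerase terms, rose 2.13-fold, and was not called without ArR_5h replicate 3 (log2 fold change 0.96 against 1.09). Neither call was made by glmTreat, with adjusted p = 0.0722 for evm.TU.ctg637.4 and 0.391 for evm.TU.ctg227.8.

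For the Wnt pathway, to which Frizzled receptors belong, 3 annotated models were tested and none was called. The model evm.TU.ctg17.30 was higher at 5 h by 0.66 ± 0.11 on the log2 scale (edgeR, adjusted p = 0.000522), and evm.TU.ctg15.54 was lower with −0.70 ± 0.23 (edgeR, adjusted p = 0.0242). With library totals, evm.TU.ctg15.54 did not pass the adjusted p limit (edgeR, adjusted p = 0.0614). Nor did it when any ArD_0h replicate or ArR_5h replicate 1 was left out (edgeR, adjusted p = 0.0555 to 0.0696). Without ArR_5h replicate 2 or 3 it passed, at −0.97 and −0.45. The groups of evm.TU.ctg777.6 overlapped, at −0.26 ± 0.27 (edgeR, adjusted p = 0.428). Both evm.TU.ctg15.54 and evm.TU.ctg777.6 are annotated with receptor binding, a term that ligands carry. Their levels, 12.03 FPKM in ArR_5h and 19.3 FPKM in ArD_0h for evm.TU.ctg15.54 and 3.05 FPKM in ArR_5h and 3.61 FPKM in ArD_0h for evm.TU.ctg777.6, lay on either side of that of Frizzled-10 per length. Since the study chose these genes partly on the ArD_0h libraries, their directions are not independent of its selection.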

How the data were processed

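Each gene model has, for every library, a deposited raw count and a deposited FPKM value, and replicates were not pooled. Per the study's methods and the submitters' processing notes, the authors filtered the reads, aligned them with HISAT2 2.0.5 to the Artemia franciscana genome (ASM3288406v1) and counted them with featureCounts 1.5.0-p3. Divergence from that species can lower a count in all libraries alike, and the kit does not mark strand. The authors divided each count by gene length and a library size to give FPKM. Dividing counts by FPKM gave the lengths back, with a library size fitted so that the lengths were whole numbers. They came out whole within 0.1 bases for 100% of models over 20 reads, which is what the fit sought. The fitted sizes were 94.8% to 106.6% of the count totals and 99.6% to 102.3% of the TMM-adjusted totals, so they were not the plain totals.

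All models were tested in one fit with the quasi-likelihood test of edgeR 4.0.16 (R 4.3.3; TMM factors; filterByExpr, minimum count 10 and total 15; Benjamini-Hochberg adjustment over the 11959 tested models), with the stage (ArR_5h over ArD_0h) as its single term. The standard error is the log2 fold change over the square root of F. The fit was run on simulated counts with the same spread for all models and known changes in few of them. Real libraries are less simple, so this checked only that the fit works. Alternatives were other scaling factors, other filters, DESeq2 1.42.0, limma 3.58.1 (voom, and log2(FPKM + 1) or log2(FPKM + 0.1)), glmTreat, a replicate block, omission of the 10 models with most reads and omission of each replicate. Figures were drawn with matplotlib 3.10.9.

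The named genes were the 4 receptors, the study's other candidates, 2 lists from its annotation, models within 3 numbers on the contigs, and for each receptor the 2 evm models of at least 10 CPM with the most similar profile. Members and lists were chosen with earlier results of these data known. Of the other candidates and contig models, values are given for some and counts for the rest. 0 columns were left without a library.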

Additional observations from a re-analysis of the deposited data

How the results depend on the processing

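No receptor changed direction in 17 alternatives each, and the 6 ratios between receptors kept their sign in 7 alternatives each. The calls of the receptors were the same in 66 of 68 results. The exceptions were the opsin without ArD_0h replicate 3 and without ArR_5h replicate 3, and its log2 fold change was 0.83 to 1.09 with single replicates omitted. The number of called models was 2984, and 1359 with glmTreat, which tests against the fold limit and so asks for more. A replicate block in the fit gave 3006 calls. The block left the log2 fold changes of the receptors at 1.95 (adhesion), −0.13 (Frizzled-10), −0.72 (RYamide receptor) and 0.96 (opsin). Same-numbered libraries had correlated deviations of 0.019, 0.033 and 0.095, so the numbers are not shown to pair them, and each library was most like its own number except ArD_0h replicate 1 and ArR_5h replicate 2. The percentiles at 5 h depend on which models are ranked. Among evm models only they were 73.03, 45.1, 45.04 and 43.97 for the adhesion receptor, Frizzled-10, the RYamide receptor and the opsin, and among tested models only 72.1, 41.5, 41.5 and 40.2. Ranked by CPM they were 84.2, 57.3 and 57.5 for the adhesion receptor, Frizzled-10 and the opsin. With 3 libraries per group, a change of the opsin cannot be placed on one side of the fold limit.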

Other observations

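Among 6354 evm models of at least 10 CPM, those with the profile most like each receptor were found by the root mean square difference of centred log2 CPM over the 6 libraries. For the adhesion receptor these were evm.TU.ctg642.13 (difference 0.046), at 25.7 ± 1.84 CPM in ArR_5h and 6.82 ± 0.264 CPM in ArD_0h (SD, n = 3 each), and evm.TU.ctg431.7 (0.062), at 152 ± 12.7 CPM in ArR_5h and 40.04 ± 2.45 CPM in ArD_0h. Their log2 fold changes were 1.91 ± 0.13 and 1.92 ± 0.09 (SE), which the choice by likeness fixes. For Frizzled-10 they were evm.TU.ctg452.20 (0.029) and evm.TU.ctg1075.11 (0.032), for the RYamide receptor evm.TU.ctg349.1 (0.05) and evm.TU.ctg261.42 (0.051). The opsin had less close matches, evm.TU.ctg441.2 (0.085) and evm.TU.ctg651.3 (0.088). The first of these lies on the contig of the RYamide receptor, 10 numbers from it, with 18.3 ± 1.68 CPM in ArR_5h and 10.3 ± 1.92 CPM in ArD_0h. These likenesses were picked from many models and were not tested.

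Further models on the contigs of the receptors are given here because of their values. On the contig of the adhesion receptor, evm.TU.ctg485.36, 7 numbers away, rose to 10.9 ± 2.04 CPM in ArR_5h, against 3.19 ± 1.01 CPM in ArD_0h (SD, n = 3 each; log2 fold change 1.77 ± 0.24, edgeR, adjusted p = 0.000132). The first model of that contig, evm.TU.ctg485.1, rose at a low level, 2.03 CPM in ArR_5h and 0.695 CPM in ArD_0h. The nearest listed models of the opsin are evm.TU.ctg179.25, at 0.99 ± 0.15 on the log2 scale (edgeR, adjusted p = 0.000307) and so close to the opsin, and evm.TU.ctg179.35, with 0.25 ± 0.09 (edgeR, adjusted p = 0.0313). On the same contig evm.TU.ctg179.18 fell to 40.02 ± 7.93 CPM in ArR_5h, against 96.8 ± 1.32 CPM in ArD_0h (SD, n = 3 each; edgeR, adjusted p = 1.86e-05).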
